A study of Mus musculus with 2 samples.

Results

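The genes described here handle fatty acids: 38 named genes of fatty acid oxidation, of synthesis and activation, of storage in lipid droplets, and target genes of the peroxisome proliferator-activated receptors (PPARs). They were chosen by gene symbol, from the annotation of an Affymetrix mouse array, and the rule used no measured value, although the list was drawn up with earlier results of these data known. Of the 38, 36 had at least 1 probe set that carried their symbol alone, together 73 probe sets, out of 18193 genes on the array. For Ucp2, a mitochondrial carrier, and Acsl1, an acyl-CoA synthetase, no probe set was named in the annotation used, so they have no signal here. The sequence around their start of transcription was still searched for motifs, as described below. Each probe set combines several short probes against the same transcript into a single signal.

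RNA came from primary keratinocytes grown from newborn C57BL/6 mice, 1 array for each of 2 cultures. One culture, titled MED1epi-/-, came from mice with floxed Med1 alleles and K5Cre, in which the keratin 5 promoter drives Cre recombinase in basal keratinocytes and the cells that descend from them. The other, titled MED1flox/flox, described as wild-type and called a littermate in the title of the study, served as control, so that by its title both groups carried the floxed alleles. The sources used here do not say how many mice went into each culture, or whether any were pooled. MED1 is the subunit of the Mediator complex that binds nuclear receptors, PPARs among them, and joins them to RNA polymerase II.

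Fatty acids enter a cell through carriers such as CD36, are kept soluble by binding proteins of the FABP family, and become usable once an acyl-CoA synthetase has joined them to coenzyme A. From there they are burnt in mitochondria and peroxisomes, built into longer or desaturated chains, or stored as triglyceride in lipid droplets coated by perilipins. PPARs pair with RXR receptors on DNA, sense fatty acids and switch on many genes of oxidation, storage and transport. In epidermis the same pathways supply lipids for the permeability barrier, and PPAR-delta is the PPAR most prominent in mouse keratinocytes.

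The 3 members beyond 2-fold were Acsl3, Scd3 and Angptl4. For 2 of them a window around the start of transcription was at hand, from 250 bases before to 50 bases after the start, and both are shown because these 2 genes were lower together. The sequences are those of RefSeq for build GRCm38.p6, read along the gene, Acsl3 at chr1:78657575-78657874 (plus strand) and Scd3 at chr19:44203038-44203337 (plus strand). Capitals mark matches to the motifs described next.
Acsl3: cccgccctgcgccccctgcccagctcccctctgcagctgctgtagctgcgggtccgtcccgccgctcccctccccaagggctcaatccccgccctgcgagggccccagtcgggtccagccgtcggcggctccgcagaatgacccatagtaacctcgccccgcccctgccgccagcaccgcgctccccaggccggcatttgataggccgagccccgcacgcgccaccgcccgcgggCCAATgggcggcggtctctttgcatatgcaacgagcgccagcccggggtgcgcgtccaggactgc
Scd3: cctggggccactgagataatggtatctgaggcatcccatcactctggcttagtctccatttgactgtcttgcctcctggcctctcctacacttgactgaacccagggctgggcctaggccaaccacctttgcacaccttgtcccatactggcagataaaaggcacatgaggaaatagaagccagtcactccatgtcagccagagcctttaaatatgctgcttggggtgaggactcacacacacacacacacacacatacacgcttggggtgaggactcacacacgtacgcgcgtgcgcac

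Of the 38 members, 29 had such a window, 32 windows in all, and 4 motifs were searched on both strands. No window was at hand for Angptl4, Fabp4, Fabp5, Acaa2, Scd1, Scd2, Elovl3, Dgat1 and Dgat2, so these were not searched. DR1, the direct repeat to which PPAR and RXR bind, was searched as 2 copies of AGGTCA with any 1 letter between them, allowing up to 2 mismatches among the 12 fixed letters. It was found in 5 of the 32 windows (15.6%) and in 3.86% of all 32851 windows of that length. TCACNCCAC, a form of the sterol element bound by SREBP factors, was found in 3 windows (9.38%, against 1.24% of all windows). These 3 belong to Acsl1, Ehhadh and Ucp2, of which Acsl1 and Ucp2 had no probe set and so no signal. The E-box CACGTG was found in 1 (3.13%, against 7.15%), and CCAAT, the element of the factor NF-Y, in 15 (46.9%, against 37.4%). Acsl3 had a CCAAT and no other match, and Scd3 had none of the 4. So few windows, of genes chosen in part as PPAR targets, allow no reading of these shares. A match is a run of letters and not evidence of a bound factor.

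The 5 DR1 matches are shown because a DR1 is the element through which PPARs act, with 10 bases on either side, read along the motif and with the match in capitals. They lie at chr4:86670262-86670294 (plus strand) for Plin2, chr9:108662132-108662164 (plus strand) for Slc25a20, chr1:78510999-78511031 (plus strand) for Mogat1, chr10:81092778-81092810 (minus strand) for Creb3l3 and chr5:17835937-17835969 (plus strand) for Cd36, all GRCm38.p6.
Plin2: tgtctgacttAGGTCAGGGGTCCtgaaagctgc
Slc25a20: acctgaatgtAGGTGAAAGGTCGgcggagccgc
Mogat1: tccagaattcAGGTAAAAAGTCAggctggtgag
Creb3l3: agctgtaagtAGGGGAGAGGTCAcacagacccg
Cd36: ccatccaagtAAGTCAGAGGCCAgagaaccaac
Each of the 5 differed from the motif by 2 letters. The match lay from 225 bases before the start of transcription for Plin2 and from 51 bases before it for Mogat1. The Plin2 window also held the E-box. By the values given below, Plin2, Slc25a20 and Creb3l3 lay within 2-fold between the arrays. Mogat1 had only a bound at the floor, and Cd36 was too low to measure.

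The values are signal intensities made with MAS5, Affymetrix's method, and deposited by the authors on a linear scale. Each array had been scaled to a mean of 500.0 after the top and bottom 2% of probe sets were trimmed. Signals under 67.7, the median over both arrays of all probe sets other than controls, were raised to that floor, and where only 1 of the 2 arrays reached it the fold is a lower bound, written "at least". Each gene was represented by the probe set whose signal, averaged over both arrays, was highest. With 1 array per group there was no replicate check and no test. The only spread that could be measured, between probe sets of the same gene, had a pooled SD of 0.31 log2 units (1.24-fold, 4916 genes). Apart from the marker sums below, signals were not compared between genes, since each probe set binds its target with its own strength. Those sums are weighted toward the brightest probe sets.

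The targeted gene was examined first. All 7 probe sets of Med1 read higher in the culture labelled MED1-null, the brightest at 1039 against 462.7 in the control culture. Where these probe sets lie relative to the deleted part of the gene is not given, so they check nothing about the deletion, and directions below are those of the labels. Xist, the RNA of the inactive X chromosome, read 55.7 in the culture labelled MED1-null and 5461 in the control culture, and the Y-linked Eif2s3y read 2164 and 4.2. The label and these transcripts of the sex chromosomes thus differed together, and the part of sex and of genotype in the values below cannot be told apart. Of 11 keratinocyte markers with a probe set, 10 reached the floor on both arrays and 9 of these were above 0, with a median log2 ratio of 0.32 and summed signals of 161062 in the culture labelled MED1-null and 139153 in the control culture. Markers of fibroblasts summed to 1569 in the culture labelled MED1-null and 3549 in the control culture, with 3 and 7 of 11 at the floor. Most of both sums came from Sparc, at 1034 and 2709, while Col1a1, Lum, Postn and Pdgfrb were below the floor on both arrays. Col3a1, Dcn, Twist2 and Thy1 reached it in the control culture only. Pdgfra, at 126.2 and 156.6, and Col1a2, at 115.3 and 80.3, reached it on both, and Col1a2 went the other way. Melanocyte markers summed to 19507 and 25056, with 8 of 8 at the floor on both. The part of these cell types in the values below was not tested.

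Fatty acid genes as a group differed little between the arrays. Of the 36 members with a probe set, 32 reached the floor on at least 1 array. Of these 32, 1 was higher by 2-fold or more in the culture labelled MED1-null, where 1.63% of all 11621 measured genes were, and 2 were at least 2-fold lower, where 2.23% of all were. Of the other 29, 28 reached the floor on both arrays and lay within 2-fold, and Mogat1 had only a bound. These 3 of 32 (9.38%) stand beside 3.86% of all measured genes in either direction, and a count of 3 allows no reading of that gap. The members' median log2 ratio was -0.04, against 0.06 for all measured genes, and 19 of the 32 (59.4%) had a ratio below 0, as did 42.9% of all. In a culture, fewer cells of a kind and less RNA per cell cannot be told apart in such values. The 4 members below the floor on both arrays were Elovl3, Far2, Pdk4 and Cd36.

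**Figure D1:**
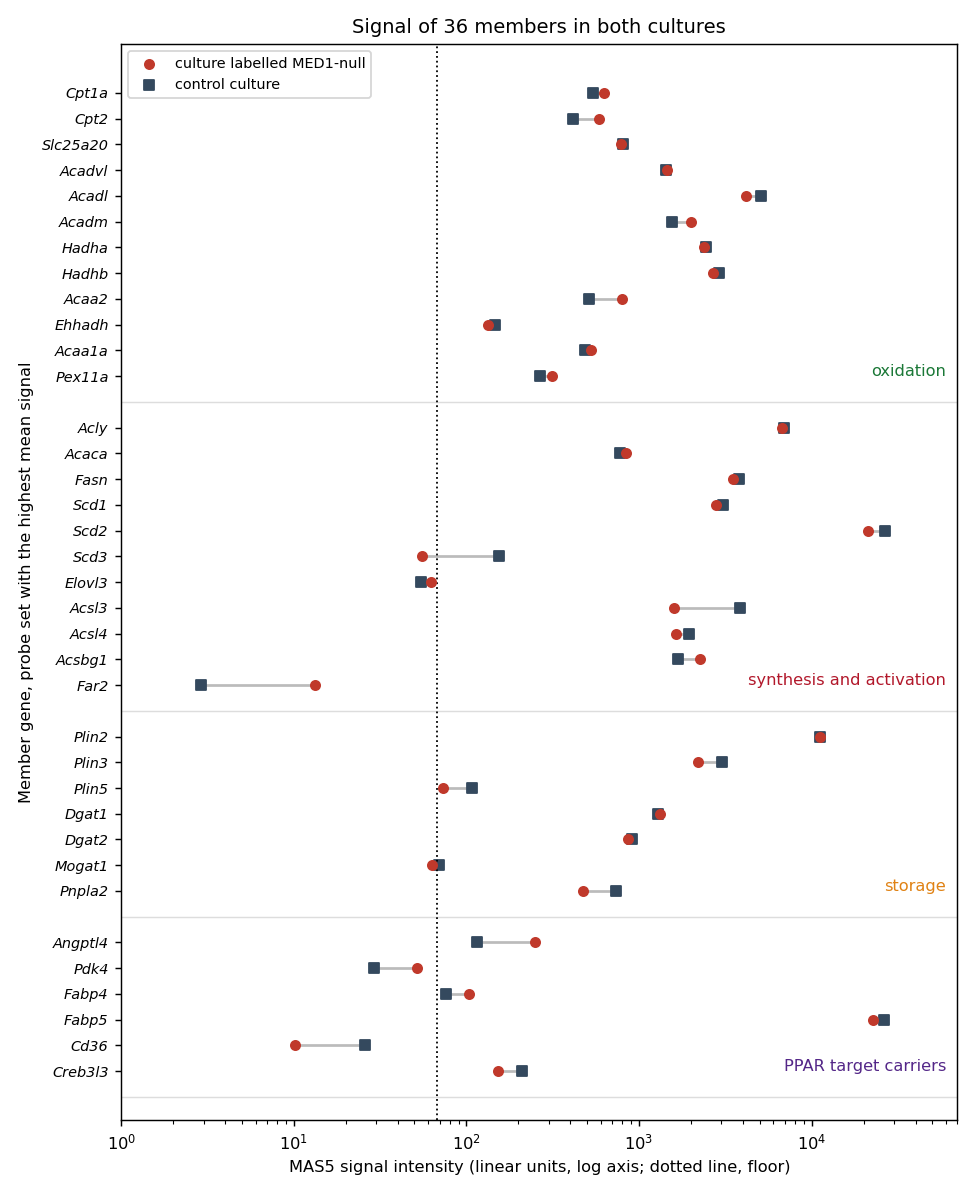
Signal of each of the 36 members with a probe set, on a log axis, with the culture labelled MED1-null as circles and the control culture as squares, by role. Most pairs nearly coincide, Acsl3, Scd3 and Angptl4 lie more than 2-fold apart, and the 4 genes wholly left of the dotted floor (67.7) were not measured.

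Genes of oxidation lay around 0. All 12 members were measured, all 12 lay within 2-fold, 7 were above 0 and 5 below, and the median log2 ratio was 0.07. The carnitine shuttle, which carries acyl chains into mitochondria, was represented by 3 genes. Cpt1a, its rate-limiting enzyme on the outer membrane, read 624.9 in the culture labelled MED1-null and 539.1 in the control culture (log2 ratio 0.21). Slc25a20, the carnitine-acylcarnitine carrier of the inner membrane, read 791.0 and 807.9 (log2 ratio -0.03). Its signal was nearly the same on both arrays by this probe set, although the other one read 298.3 and 461.0.

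Cpt2, which restores the acyl-CoA inside the mitochondrion, read 589.2 in the culture labelled MED1-null and 412.7 in the control culture, 1.43-fold higher. Its other probe set went the opposite way, reading below the floor at 52.5 in the culture labelled MED1-null and 94.0 in the control culture. The size for Cpt2 therefore rests on a single probe set.

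The acyl-CoA dehydrogenases carry out the first step of mitochondrial beta-oxidation, each on chains of a given length. Acadvl, for very long chains, read 1449 in the culture labelled MED1-null and 1432 in the control culture. Acadl, for long chains, read 4157 and 5093, 1.23-fold lower, and Acadm, for medium chains, read 2004 and 1558, 1.29-fold higher. The last 2 differed in opposite directions, each by about the spread between probe sets.

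Hadha and Hadhb encode the alpha and beta subunits of the mitochondrial trifunctional protein, which performs the later steps on long chains. Hadha read 2386 in the culture labelled MED1-null and 2439 in the control culture, and Hadhb read 2688 and 2906. Both subunits were thus nearly level, with log2 ratios of -0.03 and -0.11. The other 2 probe sets of Hadhb disagreed, at 2126 against 3312 and at 82.4 against 63.8.

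Acaa2, the mitochondrial thiolase that releases acetyl-CoA, had the highest ratio among the oxidation genes. Its 3 probe sets read 799.3, 661.3 and 523.4 in the culture labelled MED1-null, against 514.3, 365.4 and 458.2 in the control culture. All 3 were higher in the culture labelled MED1-null, by 1.55-fold, 1.81-fold and 1.14-fold. The first 2 carry a suffix that marks sequence shared between transcripts, and the third, the smallest, does not.

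The peroxisomal members were within 2-fold as well. Ehhadh, the bifunctional enzyme and a textbook PPAR-alpha target in liver, read 134.1 in the culture labelled MED1-null and 146.8 in the control culture. Acaa1a, the peroxisomal thiolase, read 525.6 and 483.3. The 2 probe sets that Acaa1a shares with its close copy Acaa1b read 574.9 against 694.8 and 833.0 against 1037, slightly the other way, so no direction can be given to this thiolase. Pex11a, a membrane protein that drives the division of peroxisomes, read 312.6 and 268.4, 1.16-fold higher.

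**Figure D2:**
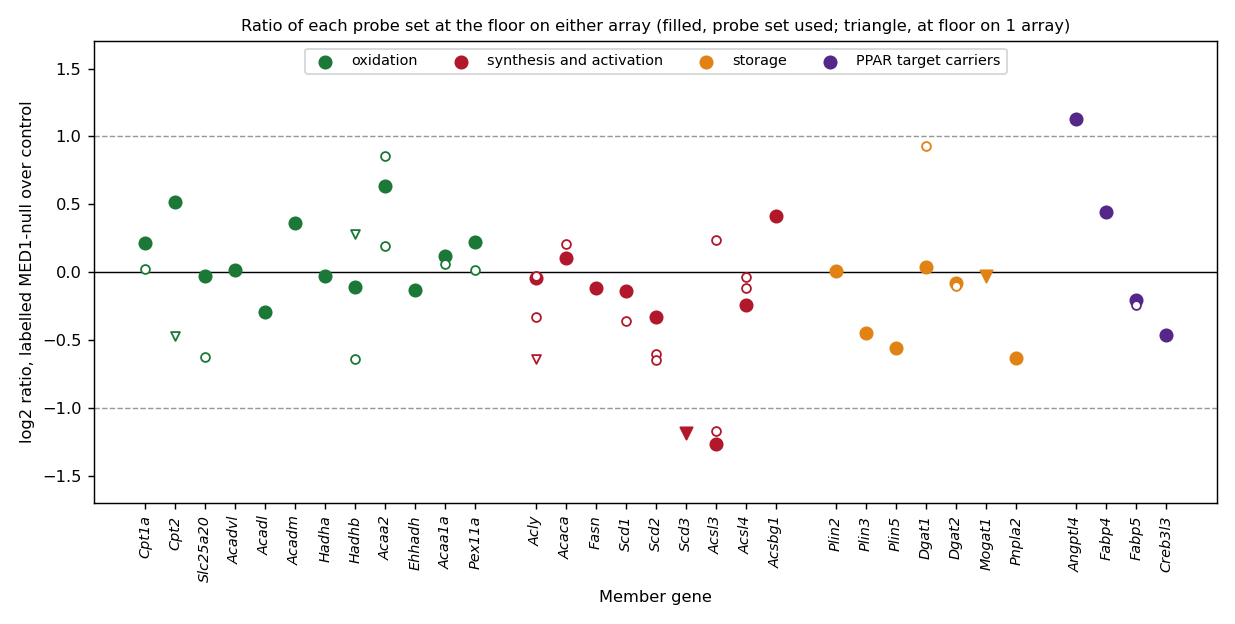
Log2 ratio, culture labelled MED1-null over control, of each member probe set that reached the floor on either array; filled symbols are the probe sets used, open symbols the others, triangles those at the floor on 1 array only, and dashed lines 2-fold. The oxidation genes scatter around 0, 2 of 3 Acsl3 probe sets lie below -1, and all 3 of Scd2 lie below 0.

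Genes of synthesis and activation had a median log2 ratio of -0.14. Of the 12, 9 were measured. A difference of 2-fold or more was seen in 2, both lower, where 2.23% of all measured genes were at least 2-fold lower. A ratio below 0 was found in 7 of 9 (77.8%, against 42.9% of all), Scd1, Scd2 and Scd3 among them. So few genes allow no reading of these shares. The core of the synthesis route was nearly level by the probe sets used. Acly, which makes cytosolic acetyl-CoA from citrate, read 6749 in the culture labelled MED1-null and 6959 in the control culture. Of its other probe sets, 1 read 4693 and 5892, 1 read 2338 and 2384, and 1 read 21.5 and 105.3, and the mean of all measured ones gave a log2 ratio of -0.26. Acaca, the carboxylase that commits acetyl-CoA to synthesis, read 836.7 and 778.6, and Fasn, fatty acid synthase, read 3487 and 3774. By the probe sets used, these 3 genes had log2 ratios between -0.11 and 0.10.

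The stearoyl-CoA desaturases place the double bond in monounsaturated fatty acids, and their genes lie side by side on chromosome 19. Scd1 read 2796 and 1144 by its 2 probe sets in the culture labelled MED1-null, against 3074 and 1468 in the control culture. Scd2 read 21156, 8448 and 3290 by its 3 probe sets in the culture labelled MED1-null, against 26589, 12822 and 5149 in the control culture. All 5 probe sets of these 2 genes were lower in the culture labelled MED1-null, by 1.10-fold and 1.28-fold for Scd1 and by 1.26-fold to 1.57-fold for Scd2.

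Scd3, the desaturase isoform known from sebaceous glands and skin, read 55.5 in the culture labelled MED1-null and 153.7 in the control culture. It was below the floor on the first and was at least 2.27-fold lower there. Its second probe set was below the floor on both, at 39.5 and 48.9. The desaturases are close paralogs, and how far their probe sets share targets was not tested. Among sebocyte markers, Mc5r and Elovl3 were below the floor on both arrays, while Krt79 read 121.1 in the culture labelled MED1-null and 46.4 in the control culture. The 8 sebocyte markers with a probe set, Scd3 among them, summed to 9357 and 7634, with 4 at the floor on each array. Most of both sums came from Sox9, at 4207 and 2458, Prdm1, at 3610 and 3618, and Ldhb, at 1234 and 1251. The part of sebocytes in the Scd3 value was not tested.

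Acyl-CoA synthetases activate fatty acids, and 1 of those measured stood apart. Acsl3, which sits on the endoplasmic reticulum and on nascent lipid droplets, read 1594 and 653.8 by its 2 brighter probe sets in the culture labelled MED1-null, against 3842 and 1476 in the control culture. Both were lower in the culture labelled MED1-null, by 2.41-fold and 2.26-fold. The third probe set, the dimmest, read 137.1 and 116.2 and did not show the difference. With the mean of all 3 probe sets the log2 ratio of Acsl3 was -0.74 in place of -1.27, which no longer reached 2-fold.

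The other measured synthetases among the members did not share this difference in size. Acsl4, which prefers arachidonic acid and lies on the X chromosome, read 1646 in the culture labelled MED1-null and 1952 in the control culture, 1.19-fold lower. Its other 2 probe sets had log2 ratios of -0.03 and -0.12. Acsbg1, the bubblegum synthetase, read 2242 and 1682, 1.33-fold higher. Elovl3, an elongase of sebaceous glands, read 62.1 and 54.9, and Far2, which reduces fatty acyl chains to the alcohols of wax esters, read 13.3 and 2.9, all of them below the floor.

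Among storage genes, 5 of 7 measured members had a ratio below 0 (71.4%, against 42.9% of all measured genes). None reached 2-fold, Mogat1 having only a bound, and the median log2 ratio was -0.08. So few genes allow no reading of that share. Plin2, the perilipin that coats droplets in most cells and a textbook PPAR target, read 11195 in the culture labelled MED1-null and 11150 in the control culture. It was the most even of all members, with a log2 ratio of 0.01. Plin3 read 2204 and 3006, 1.36-fold lower, and Plin5, the perilipin of oxidative tissues, read 73.4 and 108.0, 1.47-fold lower close to the floor.

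The acyltransferases among the members were level by the probe sets used. Dgat1 and Dgat2 both perform the last step, joining an acyl chain to diacylglycerol. Dgat1 read 1327 in the culture labelled MED1-null and 1290 in the control culture, and Dgat2 read 860.9 and 912.3. A second, dim probe set of Dgat1 read 160.3 and 84.1, 1.91-fold higher, so the 2 disagreed in size. Mogat1, which makes diacylglycerol from monoacylglycerol, read 62.9 and 69.2, at the floor, so that its ratio is a bound.

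Pnpla2, adipose triglyceride lipase, starts the breakdown of stored triglyceride and read 474.0 in the culture labelled MED1-null and 736.4 in the control culture. It was 1.55-fold lower, with the lowest ratio of the storage members, and its other probe set was below the floor on both.

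**Figure D3:**
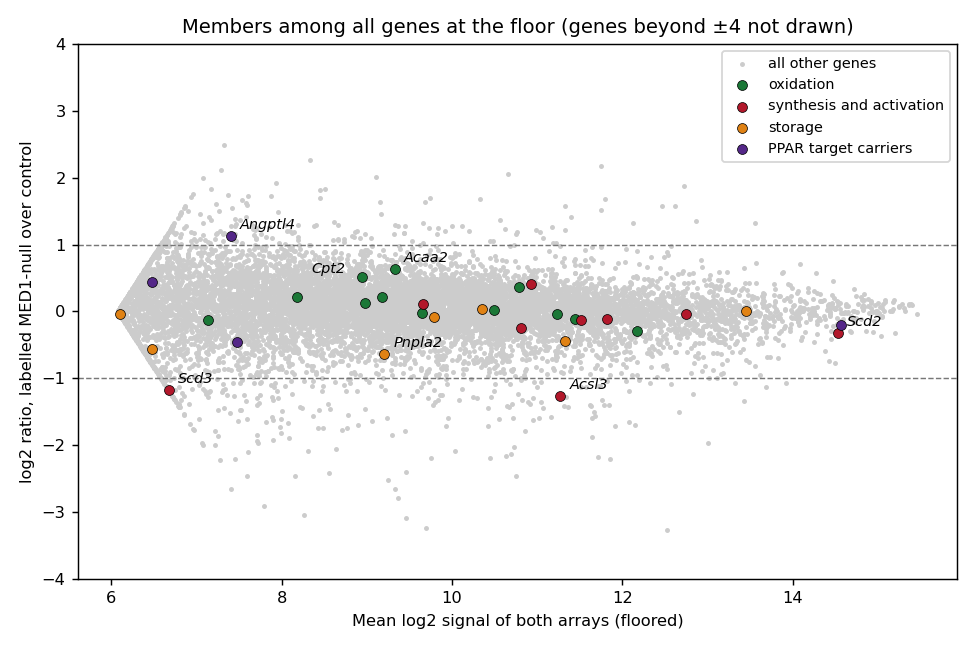
Log2 ratio of culture labelled MED1-null over control against mean log2 signal for 11621 measured genes (grey) and the 32 measured members (coloured by role), with dashed lines at 2-fold. Most members lie in the middle of the cloud, Acsl3 lies toward its lower edge at a high signal, and Scd3 and Angptl4 lie near its dim end.

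Of the 7 PPAR targets and carriers, 4 were measured, 2 of them above 0 and 2 below. Angptl4, a secreted inhibitor of lipoprotein lipase that PPARs induce in many cells, read 250.4 in the culture labelled MED1-null and 114.6 in the control culture. It was 2.19-fold higher (log2 ratio 1.13), the only member at least 2-fold higher. This rests on 1 probe set whose suffix marks shared sequence, the other reading 1.6 and 13.9. When the arrays were scaled by a lowess curve the log2 ratio of Angptl4 was 0.99, just under 2-fold.

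Pdk4, a kinase that turns off pyruvate dehydrogenase and a classic PPAR target, was below the floor on both arrays at 52.0 and 29.3. Cd36, the fatty acid translocase, was also below it, its 3 probe sets reading at most 10.7 in the culture labelled MED1-null and at most 25.8 in the control culture. Both genes are thus not measurable here, which does not show that they were off.

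Fabp5, the epidermal fatty acid binding protein, which carries ligand to PPAR-delta, read 22730 and 10512 by its 2 probe sets in the culture labelled MED1-null, against 26153 and 12433 in the control culture. Both were slightly lower, by 1.15-fold and 1.18-fold. Fabp4, the binding protein of adipocytes and some endothelium, read 103.5 and 76.2, just over the floor, and its other 3 probe sets were below it. Of the 7 adipocyte markers with a probe set, 4 were below the floor on both arrays, Adipoq, Lep, Cidec and Pck1, while Lipe and Lpl reached it on both and Retn in the culture labelled MED1-null. Of 10 endothelial markers, 8 were below the floor on both arrays. Their part in the Fabp4 value was not tested. Creb3l3, a membrane-bound transcription factor of liver and gut, read 151.6 and 209.3, 1.38-fold lower.

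The receptors and cofactors of the pathway gave the setting for these values. Ppard, which encodes PPAR-delta, read 2297 in the culture labelled MED1-null and 2253 in the control culture. Ppara read 68.9 and 20.5 by its brightest probe set, at the floor, and Pparg read 6.3 and 13.2, below it. Rxra, the partner receptor, read 454.8 and 431.1, and Srebf1, the regulator of fatty acid synthesis genes, read 1133 and 1213. Of 21 measured regulators, Med1 was beyond 2-fold, Ppara and Mlxipl had only a bound, and the other 18 lay within 2-fold, and the median log2 ratio of the list was -0.05.

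Other genes of the same pathways were examined by 5 further lists, read against the same background shares. Of 23 measured genes of mitochondrial oxidation outside the members, none reached 2-fold and the median log2 ratio was 0.10. Acot2, a mitochondrial thioesterase, read 246.4 in the culture labelled MED1-null and 461.0 in the control culture, and Crat, carnitine acetyltransferase, read 206.1 and 349.9. Of 15 peroxisomal genes, 14 lay within 2-fold and Acox3 had only a bound, and their median was 0.13. Acox3, a peroxisomal oxidase, read 108.4 and 32.0 (at least 1.60-fold higher) and Amacr, a racemase of branched chains, 262.3 and 165.8. Of the 50 oxidation genes measured here, members included, all but Acox3 were measured on both arrays and lay within 2-fold.

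Of 20 further genes of synthesis and elongation, none reached 2-fold and as many were above 0 as below. The desaturases Fads2 and Fads1, which make polyunsaturated chains, were the 2 farthest from 0. Fads2 read 542.3 in the culture labelled MED1-null and 977.9 in the control culture, 1.80-fold lower, with all 3 probe sets lower. Fads1 read 234.9 and 391.3, 1.67-fold lower, but its second probe set had a log2 ratio of 0.04.

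Genes of triglyceride and lipid droplets had a median log2 ratio of -0.24 over 23 measured genes. Of these, 18 had a ratio below 0 (78.3%, against 42.9% of all genes), and Pnpla3 had only a bound. At least 2-fold lower were 2, beside 2.23% of all measured genes, and 2 were at least 2-fold higher, beside 1.63%. So few genes allow no reading of these shares. Gpat3, which adds the first acyl chain to glycerol phosphate, read 263.9 in the culture labelled MED1-null and 858.0 in the control culture, 3.25-fold lower. Lipe, hormone-sensitive lipase, read 1143 and 2881, 2.52-fold lower. Fitm1, a protein that helps form droplets, read 334.0 and 111.2 (log2 ratio 1.59), and G0s2, an inhibitor of Pnpla2, read 136.4 and 54.4, at least 2.01-fold higher. Each of these 4 rests on 1 probe set.

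The genes of lipid breakdown named here were lower or nearly level. Besides Pnpla2 and Lipe, Abhd5, the activator of Pnpla2, was lower, at 2554 in the culture labelled MED1-null against 4664 in the control culture. Mgll, the lipase of monoglycerides, read 562.9 and 545.4, and Lipa, the lysosomal acid lipase, read 226.2 and 216.2, both nearly level. Lpl, lipoprotein lipase, read 336.5 in the culture labelled MED1-null and 630.7 in the control culture. Pnpla1 read 1148 and 1571, and Pnpla3, a bound, read 44.3 and 89.4, both lower. The 2 probe sets of Abhd5 had log2 ratios of -0.87 and -0.11. Abhd5, Mgll, Lipa, Lpl, Pnpla1 and Pnpla3 and the grouping of these genes were picked after their values were seen. Lipe and Lpl also stood among the adipocyte markers, whose summed signal was 1667 in the culture labelled MED1-null and 3575 in the control culture, with 3 and 2 of 7 at the floor. Most of that sum came from Lipe and Lpl themselves. Retn, the adipokine resistin, read 120.1 and 5.2, while Adipoq read 6.8 and 2.3, Lep 6.7 and 7.2, and Cidec 1.6 and 7.1.

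Of 17 further PPAR targets and carriers, 1 was at least 2-fold lower, beside 2.23% of all measured genes, and the median was 0.02. It was Vldlr, the receptor for very low density lipoprotein. Vldlr read 844.1 in the culture labelled MED1-null and 1698 in the control culture, 2.01-fold lower, and its 6 probe sets ran from -1.08 to -0.12 in log2 ratio. Ucp3, Pdk2 and Gpihbp1 reached the floor on 1 array only, so for these 3 a difference of 2-fold can be neither given nor denied.

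**Figure D4:**
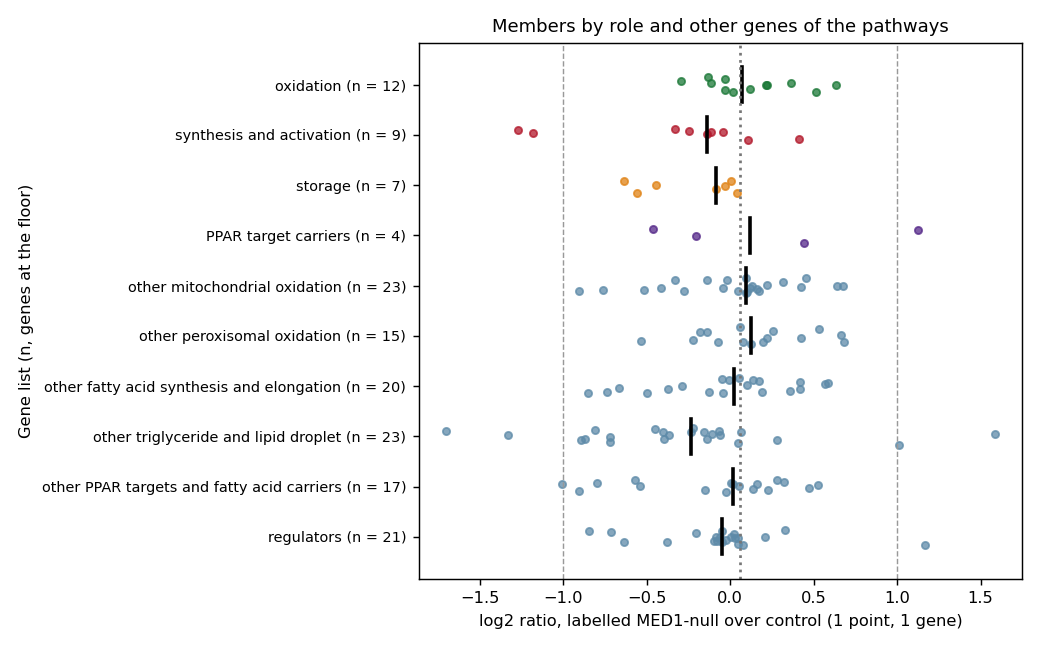
Log2 ratio of culture labelled MED1-null over control for each measured gene (1 point, 1 gene) of the 4 member roles and the 6 further lists, with the list median as a black bar, the median of all genes (0.06) dotted and 2-fold dashed. The triglyceride and droplet list has a median of -0.24 and genes beyond 2-fold on both sides, and genes at the floor on 1 array, such as Acox3, are drawn at their bound.

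Agreement between probe sets was mixed. Among 16 members with more than 1 measured probe set, the probe sets pointed the same way in 13 and went both ways in 3, which were Acsl3, Cpt2 and Hadhb. Over the reported values and 8 other ways of processing the signals, 29 of 32 members kept the sign of their ratio wherever they had a value. The 3 that did not, Plin2, Acadvl and Dgat1, had ratios near 0 as reported.

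**Figure D5:**
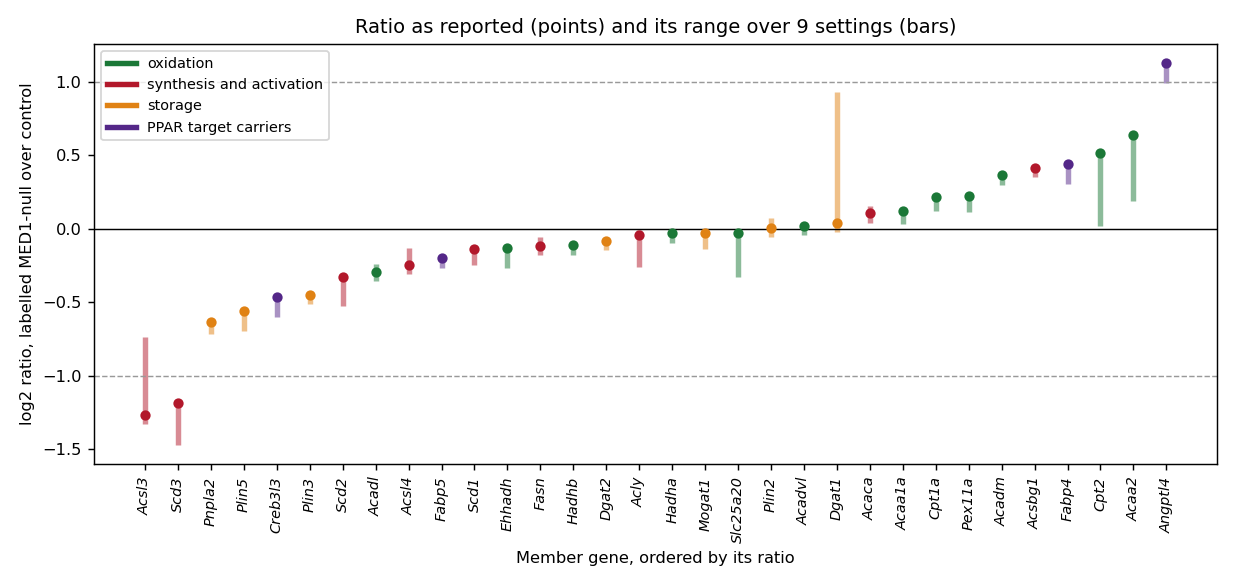
Log2 ratio of culture labelled MED1-null over control for each of the 32 measured members as reported (points) and the range over 9 settings (bars), in order of the ratio, with dashed lines at 2-fold. Acsl3 runs from -1.33 to -0.74, Scd3 stays below -1, Angptl4 runs from 0.99 to 1.13, and Dgat1 has the widest bar, up to 0.93. Not every member has a value in all 9 settings, with 7 for Angptl4 and 8 for Scd3.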

How the data were processed

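Each sample was 1 array hybridised with biotin-labelled cRNA of a primary keratinocyte culture. The deposited values are linear signal intensities, 1 for each probe set, which the authors computed with MAS5 per the submitters' processing notes. The version of that software is not given in the sources used here. Of 45101 probe sets, 64 are controls, 34945 carried 1 gene symbol, 932 several and 9160 none, by GEO's platform annotation. Of the 34945, 34741 were found by Entrez ID in RefSeq of GRCm38.p6, which changed 0 symbols.

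Signals were floored at 67.7, log2 ratios of the culture labelled MED1-null over the control culture were taken, and genes at least 2-fold apart were counted with Python 3.11.15 and pandas 2.3.3. The counting was tested on simulated data, with changes larger than 2-fold in genes well above the floor. Its noise was smaller than the spread between probe sets, so it does not cover dim genes near 2-fold, such as Angptl4 and Scd3. The motif search was tested on random sequences with a planted DR1. No test between groups was possible with 1 array each, whose number limits the precision of every value. Across the 20821 probe sets over the floor in both cultures, which are not independent, Pearson's r was 0.975.

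All 38 members were named. In each further list the genes at least 2-fold apart, up to 4, were named, or the 2 farthest from 0 where none was, with Med1, Ppara, Ppard, Pparg, Rxra and Srebf1 added. Some regulators and genes of lipid breakdown were named after their values were seen, as said there. Members and lists were chosen with earlier results of these data known. Alternatives were 3 other floors, 3 scalings and 2 choices of probe set.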

Additional observations from a re-analysis of the deposited data

How the results depend on the processing

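No paired analysis was possible because each group had 1 array and the labels give no replicate numbers; for the same reason no array could be left out. The count of members at least 2-fold higher, 1 as reported, became 0 when the floor was put at the 75th percentile (434.6), 2 with no floor, 0 after lowess scaling and 0 without probe sets of shared sequence, and it stayed at 1 under the other 4 alternatives. The count at least 2-fold lower, 2 as reported, became 1 under that floor, 1 with the mean of all probe sets and 3 with no floor. Angptl4 had no value under that floor or without probe sets of shared sequence, so those 2 zeros reflect a lost measurement. Scd3 likewise had no value under that floor. The members added without a floor are Far2 and Cd36, whose signals lie far below 67.7. The median of the PPAR targets and carriers was -0.35 without probe sets of shared sequence, over 2 genes in place of 4. Of 244 member ratios recomputed, 239 moved by less than the SD between probe sets, 5 moved by more and 0 reversed a difference of 2-fold. Over all genes, 190 higher and 259 lower became 140 and 314 after lowess scaling (57.7% and 69.2% lower), 1120 and 934 with the floor at the 25th percentile, 2169 and 1866 with no floor, and 49 and 106 with the floor at the 75th percentile. Setting the median ratio to 1 moved all storage members below 0 (7 of 7). Genes near 67.7, among them Mogat1, Plin5, Fabp4 and Ppara, were limited by signal over background. The causes of these changes were not tested.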
